A study of Mus musculus with 2 samples.

Results

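*Rgs2*, *Ntng1*, *Ddit4l*, *Crym*, *Aldoc* and *Sult1c1* are 6 of the 31055 features counted in pituitary cells of mice at postnatal day 3 (P3). They were chosen from measured values of these same cells, as genes that led in the stem cells (SCs) richest in *Aldh1a2*, and were found by their symbols, each of which matched 1 feature. Their high level in *Aldh1a2*-rich SCs is therefore how they were chosen and not a finding. What follows describes which cells held them together with *Aldh1a2* or *Ednrb*, how they differed among themselves, and their levels in differentiating, endocrine and mesenchymal cells.

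The cells were dissociated from pituitaries of male and female Sox9iresGFP/+ mice, in which GFP is made from 1 allele of the *Sox9* locus, and GFP-positive cells were sorted before droplet capture. The labels name no treatment. Each sex is 1 library from 3 pooled pituitaries, so no difference between the sexes has a replicate check and no p-value is given anywhere. After filtering, 10410 male and 5711 female cells remained, with medians of 8902.5 and 9789 unique molecular identifiers (UMIs, each counting 1 captured RNA molecule) per cell.

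The label calls the sorted cells stem cells, but SC-like clusters held only 2862 male and 3210 female cells. Differentiating-like, endocrine-like, proliferating-like and mesenchymal-like clusters held most of the other named cells. The male library had 3627 cells under 5000 UMIs and the female library 287. The 4 clusters with few UMIs, which stayed without a name, held between 150 and 1708 male and between 3 and 84 female cells each. The libraries shared 19 cell barcodes.

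In the pituitary, SCs line the cleft between the lobes and are scattered through the anterior lobe, and they give rise to hormone-secreting cells after birth. *Aldh1a2* encodes a retinaldehyde dehydrogenase, which makes retinoic acid, and *Ednrb* the endothelin receptor type B. The 6 genes have unlike functions. *Rgs2* encodes a GTPase-activating protein that shortens signalling from Gq-coupled receptors, and *Ntng1* encodes netrin-G1, a lipid-anchored adhesion molecule of the cell surface. *Ddit4l* encodes an inhibitor of mTOR signalling related to *Ddit4*. *Crym* encodes mu-crystallin, a cytosolic protein that binds thyroid hormone, *Aldoc* the glycolytic enzyme aldolase C, and *Sult1c1* a cytosolic sulfotransferase.

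The genes lie on different chromosomes or far apart, so that none shares a locus with another. In mm10 with GENCODE M21 annotation, all 6 are protein-coding, and *Rgs2* (ENSMUSG00000026360) is at chr1:143999338-144004161, minus strand, and *Sult1c1* (ENSMUSG00000023943) at chr17:53961615-53990674, minus strand. *Ntng1* (ENSMUSG00000059857) and *Ddit4l* (ENSMUSG00000046818) are both on chromosome 3, at chr3:109780040-110144011, minus strand, and at chr3:137621612-137628333, plus strand. *Crym* (ENSMUSG00000030905) is at chr7:120186380-120202111, minus strand, and *Aldoc* (ENSMUSG00000017390) at chr11:78322968-78327781, plus strand. Promoter windows of RefSeq (GRCm38.p6) were matched for 5 of the 6 genes, and *Aldoc* has 2 windows. The 250 bases before the start in these windows are printed for *Rgs2* and *Ddit4l*. These have the highest ratios of level in the male library when cells with *Aldh1a2* are set against cells with *Ednrb*. The windows and the gene spans come from different annotations, and the *Ddit4l* window lies within the span given for the gene. Capitals mark a match on either strand to 1 of the motifs searched, which were AGGTCA (the core motif of nuclear receptors), ACAAAG (a motif of SOX factors), ACAATG (another motif of SOX factors), GGGCGG (the GC box) and TATAAA (the TATA box). A missing match says only that the letters are not in the window.
Rgs2, chr1:144004150-144004399, minus strand: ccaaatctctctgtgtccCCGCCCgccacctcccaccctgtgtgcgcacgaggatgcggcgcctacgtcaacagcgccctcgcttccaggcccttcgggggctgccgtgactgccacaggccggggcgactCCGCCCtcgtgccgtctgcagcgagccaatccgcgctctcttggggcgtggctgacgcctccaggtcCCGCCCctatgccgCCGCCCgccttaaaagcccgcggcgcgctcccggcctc
Ddit4l, chr3:137623422-137623671, plus strand: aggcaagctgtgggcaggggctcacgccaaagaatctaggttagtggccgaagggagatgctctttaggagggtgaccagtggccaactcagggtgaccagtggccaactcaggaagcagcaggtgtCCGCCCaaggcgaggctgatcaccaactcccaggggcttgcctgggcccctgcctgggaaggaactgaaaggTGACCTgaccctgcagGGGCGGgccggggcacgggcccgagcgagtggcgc
The windows of all genes had a median of 52.4% G and C. The *Rgs2* window was 72.4% G and C and held 4 GC boxes, a motif found in 32.7% of all 32851 windows. Each window has 300 bases, of which 250 were searched. The *Ddit4l* window (65.2% G and C) held 2 GC boxes and 1 AGGTCA at -51 bases from the start, a motif of 14.0% of windows. The *Sult1c1* window (50% G and C) held a TATA box, a motif of 12.4% of windows, an ACAAAG, a motif of 16.5%, and 1 GC box. No motif other than the GC box was found in more than 1 of the 6 windows, and none held ACAATG, which is in 10.7% of all windows.

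Co-detection was scored in cells with at least 1 *Sox2* UMI, the SC factor by which these cells are usually defined. Such cells numbered 6610 (male) and 4928 (female). To give every cell the same chance of showing a gene, 5000 UMIs were drawn from each, so that 1434 male and 167 female cells of lower depth were not used. Of the 5176 male cells then left, 2558 (49.4%) had *Aldh1a2* without *Ednrb*, 698 (13.5%) had both, 168 (3.25%) had *Ednrb* without *Aldh1a2*, and 1752 had neither. Of the 4761 female cells, 1984 (41.7%) had *Aldh1a2* only, 1130 (23.7%) both, 399 (8.38%) *Ednrb* only, and 1248 neither. These gates hold for the thinned counts only. Among all UMIs of the same cells, *Aldh1a2* was found in 49.4% of male and 39.8% of female *Ednrb*-only cells. It was also in 34.7% and 33.9% of cells with neither, and *Ednrb* was in 21.5% and 22.6% of *Aldh1a2*-only cells. Shares are given with exact Clopper-Pearson 95% limits, and levels, as UMIs per 1000000 UMIs of the same cells (CPM), with exact Poisson 95% limits. Where no cell or UMI was counted, the upper limit is instead what 3 counts allow. These limits cover counting error only.

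*Rgs2* differed between the gates by about the same ratio in both libraries. A UMI of it was found in 84.5% (83.0 to 85.9) of male and 83.5% (81.8 to 85.1) of female *Aldh1a2*-only cells, and in 52.4% (44.5 to 60.1) and 49.6% (44.6 to 54.6) of *Ednrb*-only cells. Cells with both markers lay between, at 75.8% and 72.7%. Its level was 678 CPM in *Aldh1a2*-only and 259 CPM in *Ednrb*-only male cells, a ratio of 2.62-fold (2.39 to 2.89). In the female library the levels were 763 CPM and 283 CPM, a ratio of 2.70-fold (2.51 to 2.90). Cells with neither marker were at 255 CPM and 318 CPM. Among cells of SC-like clusters alone, the ratios of *Aldh1a2*-only over *Ednrb*-only cells were 2.99-fold (2.66 to 3.37) and 3.18-fold (2.93 to 3.45). Where the markers were scored as present only at 2 or more UMIs, the male ratio was 4.08.

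*Ntng1* and *Ddit4l* were detected in fewer cells, with about the same ratio. *Ntng1* was found in 29.6% (27.9 to 31.4) of male and 25.9% (24.0 to 27.9) of female *Aldh1a2*-only cells, against 18.5% (12.9 to 25.2) and 15.5% (12.1 to 19.5) of *Ednrb*-only cells. Its levels there gave ratios of 1.98-fold (1.56 to 2.54) and 1.96-fold (1.59 to 2.44). *Ddit4l* was found in 28.7% (26.9 to 30.5) and 24.4% (22.6 to 26.4) of *Aldh1a2*-only cells, against 13.7% (8.88 to 19.8) and 15% (11.7 to 18.9) of *Ednrb*-only cells. Its level ratios were 2.17-fold (1.69 to 2.81) and 1.94-fold (1.58 to 2.40), the male one 4.60 with the markers scored at 2 or more UMIs. In the cells with both markers *Ddit4l* was at 16.9% and 15.7%, whose limits overlap those of *Ednrb*-only cells. *Ntng1* was there at 26.8% (23.5 to 30.2) in the male library, which overlaps *Aldh1a2*-only cells, and at 18.7% (16.4 to 21.1) in the female library, which overlaps *Ednrb*-only cells. By level, cells with both lay between the gates for both genes. Male *Ntng1* was 1.17-fold (1.05 to 1.30) higher in *Aldh1a2*-only cells than in cells with both. Over *Ednrb*-only cells, cells with both had ratios of 1.34-fold (1.05 to 1.72) for female *Ntng1* and 1.41-fold (1.05 to 1.93) for male *Ddit4l*. For female *Ddit4l* the ratio was 1.09-fold (0.846 to 1.40), which holds 1.

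*Crym* was about as common in cells with both markers as in *Aldh1a2*-only cells, and less common in *Ednrb*-only cells. It was found in 64.2% (62.3 to 66.0) of male and 54.3% (52.1 to 56.5) of female *Aldh1a2*-only cells, and in 64.8% (61.1 to 68.3) and 50.2% (47.2 to 53.1) of cells with both. In *Ednrb*-only cells it was at 41.1% (33.6 to 48.9) and 34.1% (29.4 to 39.0), and the ratios of levels were 1.40-fold (1.25 to 1.56) and 1.95-fold (1.73 to 2.21). *Aldoc* did not distinguish these cells by detection. Its shares were 69.7%, 73.6% and 70.8% in male *Aldh1a2*-only, double-positive and *Ednrb*-only cells, and 72.0%, 76.5% and 75.2% in female cells. The ratio of its levels was 1.24-fold (1.13 to 1.36) in male cells and 0.987-fold (0.920 to 1.06) in female cells, where the limits hold 1. Its direction depended on how the cells were scored and chosen. Scored on all UMIs, the ratio was 0.968 (0.868 to 1.08) in male and 0.812 (0.747 to 0.883) in female cells, and with the cells under 5000 UMIs still left out it was 0.993 (0.884 to 1.12) and 0.802 (0.737 to 0.874), so that female *Aldoc* was then higher in *Ednrb*-only cells. Among cells of SC-like clusters the ratio was 1.27 (1.14 to 1.42) and 1.09 (1.01 to 1.18).

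*Sult1c1* was rare. It was found in 2.35% (1.79 to 3.01) of male and 2.32% (1.70 to 3.08) of female *Aldh1a2*-only cells. Of the cells with both markers it was in 0.430% (0.0887 to 1.25) and 0.619% (0.249 to 1.27), and of *Ednrb*-only cells in 2 of 168 male cells and 0 of 399 female cells, which allows up to 0.752%. All UMIs of the same cells gave 206 and 160 in *Aldh1a2*-only cells, and 7 and 1 in *Ednrb*-only cells. The ratio of 1.62-fold (0.684 to 4.63) in the male library was not distinguishable from 1 at this depth, and that in the female library was 29.3-fold (4.47 to 1349). This call depends on the scoring. The male ratio was 7.80 (1.21 to 355) without thinning, with 1 UMI in *Ednrb*-only cells, and with thinning to 3000 UMIs, where *Ednrb*-only cells had none, the lower limit of the ratio against what 3 counts allow was 3.91.

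**Figure D1:**
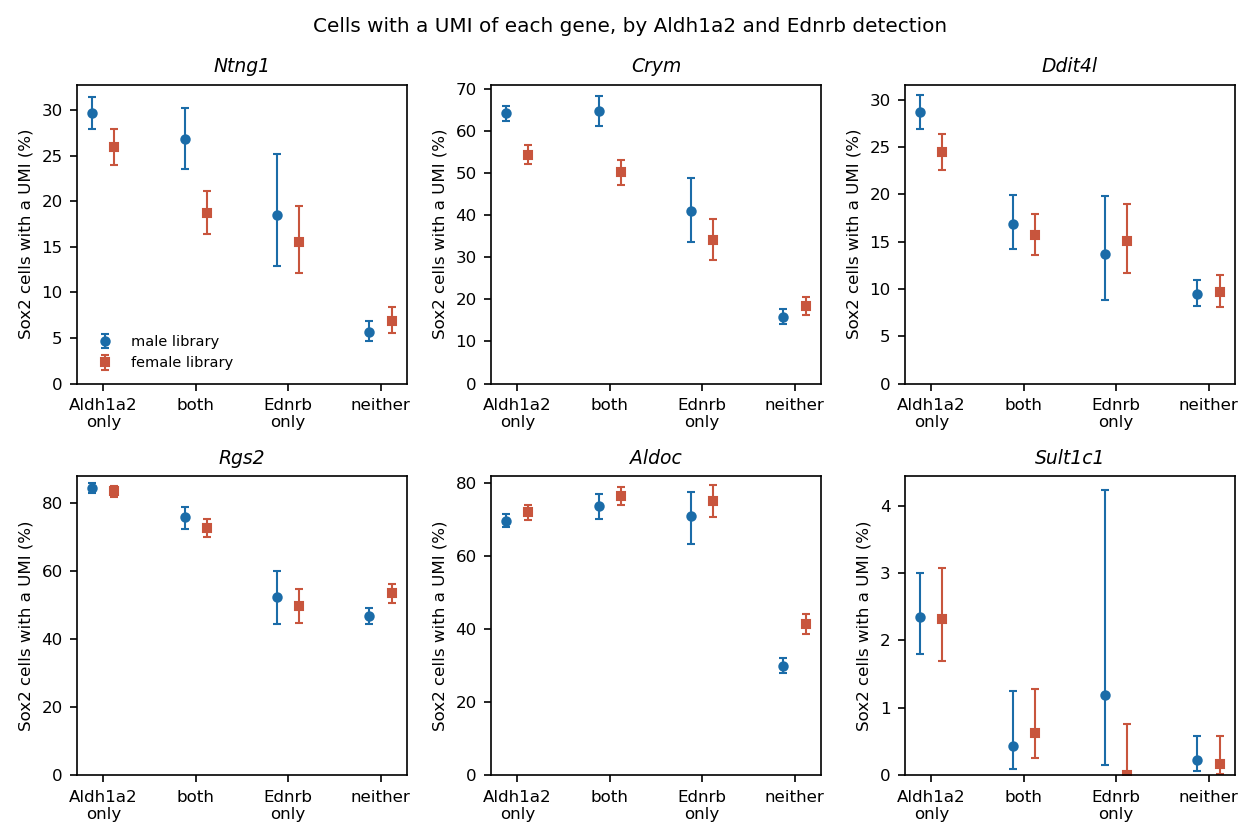
Share of *Sox2* cells (y axis, %) with a UMI of each gene after thinning to 5000 UMIs, in cells with *Aldh1a2* only, both markers, *Ednrb* only or neither (x axis), for the male (circles) and female (squares) library with 95% Clopper-Pearson limits. *Rgs2* was at 84.5% in *Aldh1a2*-only and 52.4% in *Ednrb*-only male cells, while *Aldoc* was at 69.7% and 70.8%.

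Cells with neither marker had less of all 6 genes than *Aldh1a2*-only cells. For *Rgs2* the ratios were 2.66-fold (2.57 to 2.76) and 2.40-fold (2.30 to 2.51), and for *Ntng1* 5.34-fold (4.69 to 6.11) and 4.40-fold (3.70 to 5.26), with *Sult1c1* at 4.29-fold (2.64 to 7.19) and 13.6-fold (5.88 to 36.8). Markers of endocrine cells moved with this gate. *Cga*, which encodes the subunit shared by gonadotrophins and thyrotrophin, was in 37.2% and 19.8% of cells with neither against 16.5% and 5.70% of *Aldh1a2*-only cells, and all 6 melanotroph markers were higher in cells with neither in both libraries, summing to 29287 and 11136 CPM against 1876 and 463 CPM. Only 194 male and 260 female cells with neither marker lay in SC-like clusters, and among SC-like cells the ratios of *Aldh1a2*-only over neither were nearer to 1. They were 1.32-fold (1.24 to 1.41) and 1.65-fold (1.54 to 1.77) for *Rgs2*, 1.22-fold (1.02 to 1.47) and 1.38-fold (1.12 to 1.70) for *Ntng1*, and 1.04-fold (0.869 to 1.24) and 1.16-fold (0.955 to 1.41) for *Ddit4l*, whose limits hold 1. Male *Sult1c1* was there at 0.672-fold (0.393 to 1.19), which holds 1, and female *Sult1c1* at 5.08-fold (1.83 to 18.4).

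Over all gated cells, those with neither also had less *Sox2*, at 305 CPM and 452 CPM against 542 CPM and 655 CPM in *Aldh1a2*-only cells. *Ednrb*-only cells had more *Sox2* than either, at 602 CPM and 731 CPM, and *Sox9* at 117 CPM and 126 CPM against 90.7 CPM and 92.2 CPM. Of the 7 markers in the SC list, 5 were higher in *Ednrb*-only than in *Aldh1a2*-only cells of each library, and the others were not. The list summed to 2696 against 2676 CPM in male and 3681 against 3382 CPM in female cells. How *Rgs2*, *Ntng1* and *Ddit4l* vary with SC factors was not tested.

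As a background to these ratios, 11061 genes had at least 100 UMIs in the *Aldh1a2*-only and *Ednrb*-only cells of each library together, and 55 of them, or 0.497%, were 2-fold or more higher in *Aldh1a2*-only cells of both libraries. Of the 6 genes only *Rgs2* was among them. Without thinning 3 of the 6 passed, as did 0.762% of the genes counted. Since the genes were chosen by a contrast close to this one, nothing is read from these counts. The 6 had a median ratio of 1.80 (male) and 1.96 (female), and that of all genes tested 0.984 and 0.989. *Rgs2* ranked 20, *Ntng1* 62, *Ddit4l* 65, *Sult1c1* 133, *Crym* 252 and *Aldoc* 3461 by the smaller of their ratios in the libraries.

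The 5 genes ranked first were *Has2*, a hyaluronan synthase, *Otx1*, a homeobox factor, *Epas1*, a hypoxia-inducible factor, *Rtl1* and the collagen gene *Col28a1*. *Has2* had 494 UMIs in *Aldh1a2*-only and 1 in *Ednrb*-only male cells, and 271 and 1 in female cells. *Epas1* was 4.30-fold and 5.84-fold and *Col28a1* 3.71-fold and 3.91-fold higher. The 5 at the other end were *Irx1*, *Pxdc1*, *Ctgf*, *Col2a1* and *Ucma*, with ratios from 0.128 to 0.285. *Col2a1* also led a posterior lobe-like cluster that was named when cells with at least 2000 genes were clustered, and 18 of the 168 male and 45 of the 399 female *Ednrb*-only cells were in it, against 9 and 6 *Aldh1a2*-only cells. Of the 4 posterior lobe markers 4 were higher in male *Ednrb*-only than in *Aldh1a2*-only cells and 0 in female cells, where *Nkx2-1* and *Scn7a* had no UMI in either gate, and they summed to 9.05 against 2.62 CPM and to 0.956 against 1.97 CPM. Without the cells of that cluster, *Rgs2* had ratios of 2.47-fold (2.24 to 2.72) and 2.48-fold (2.31 to 2.67), *Ntng1* of 1.95-fold (1.52 to 2.52) and 1.9-fold (1.53 to 2.37), and *Aldoc* of 1.43-fold (1.28 to 1.59) and 1.11-fold (1.03 to 1.2), so that female *Aldoc* was then higher in *Aldh1a2*-only cells. All 6 genes passed the minimum of 100 UMIs, and none of them was among the 5 genes at either end.

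All 6 genes were higher in cells with 7 or more *Aldh1a2* UMIs than in cells with 1. Since they were chosen as leading in *Aldh1a2*-rich cells, this is close to that choice and not a finding. *Crym* was at 71.6, 180.3, 266, 337 and 414 CPM in male *Sox2* cells with 0, 1, 2 to 3, 4 to 6 and 7 or more *Aldh1a2* UMIs after thinning. In female cells it was at 68.9, 127, 190.4, 251 and 323 CPM. *Rgs2* went from 255 to 925 CPM in male and from 310.4 to 1072 CPM in female cells, *Aldoc* from 108 to 526 CPM and from 187 to 553 CPM. These 3 genes and *Ntng1* were higher at every step in both libraries.

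*Ddit4l* and *Sult1c1* were less regular. Male *Ddit4l* was at 86.5 CPM with 4 to 6 and 82.0 CPM with 7 or more *Aldh1a2* UMIs, while female *Ddit4l* went from 70.5 to 88.9 CPM. *Sult1c1* was at 2.74, 8.83 and 14.8 CPM in the last 3 female bins, and at 4.69, 3.97 and 8.20 CPM in the male ones. The highest bin held 496 male and 331 female cells.

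Between cells with 7 or more and cells with 1 *Aldh1a2* UMI, *Crym* had the ratios 2.30 (2.12 to 2.48) and 2.54 (2.28 to 2.84), *Ntng1* 2.09 (1.80 to 2.43) and 1.99 (1.63 to 2.43), *Aldoc* 2.19 (2.04 to 2.34) and 1.99 (1.83 to 2.15), *Rgs2* 1.89 (1.79 to 1.98) and 2.07 (1.96 to 2.19), and *Ddit4l* 1.35 (1.16 to 1.58) and 1.78 (1.47 to 2.16). Of the 5 genes with enough UMIs to be counted, all but *Ddit4l* were 1.5-fold or more higher in both libraries, as were 2.95% of the 9676 genes counted. Because of how the genes were chosen, nothing is read from this count. *Sult1c1* had too few UMIs for that count, with ratios of 2.78 (1.53 to 5.12) and 7.34 (3.67 to 15.1). *Ednrb* itself was lower in the *Aldh1a2*-richest cells, at 0.796 (0.651 to 0.973) and 0.561 (0.473 to 0.664).

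The amount of *Ednrb* divided the genes. *Rgs2* was lower at the highest *Ednrb* counts, going from 509 CPM without *Ednrb* to 269.9 CPM with 4 or more *Ednrb* UMIs in male cells, and from 583 to 252 CPM in female cells. With 1 *Ednrb* UMI male *Rgs2* was higher than without, at 542 (527 to 558) CPM. *Ddit4l* was also lower with 4 or more, from 59.0 to 23.2 CPM and from 53.0 to 26.5 CPM. The bin without *Ednrb* mixes 2 gates. *Aldh1a2*-only cells had 678 and 763 CPM of *Rgs2* and 82.3 and 71.5 CPM of *Ddit4l*. Cells with neither marker had 255 and 318 CPM of *Rgs2* and 24.0 and 26.0 CPM of *Ddit4l*. *Sult1c1* went from 4.37 to 0.541 CPM in female cells, and it had no UMI in the 227 male cells with 2 to 3 or the 49 with 4 or more, which allows up to 1.02 and 5.36 CPM. *Aldoc* was at 247 CPM without *Ednrb* and 345 CPM with 4 or more *Ednrb* UMIs in male cells. In female cells it was at 275 and 399 CPM. Of the cells without *Ednrb*, *Aldh1a2*-only cells were at 350 and 369 CPM of *Aldoc* and cells with neither marker at 93.7 and 137 CPM. With 1, 2 to 3 and 4 or more *Ednrb* UMIs *Aldoc* was at 363, 320 and 345 CPM in male cells. Female cells were there at 370, 390 and 399 CPM. Among these bins *Crym* and *Ntng1* were highest in cells with 1 *Ednrb* UMI, at 264 and 169.7 CPM and at 71.1 and 53.4 CPM. They were lower with 4 or more, at 134 and 116 CPM and at 48.3 and 26.0 CPM. *Aldh1a2*-only cells, a part of the bin without *Ednrb*, were higher, at 292 and 211 CPM of *Crym* and 82.2 and 69.5 CPM of *Ntng1*.

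**Figure D2:**
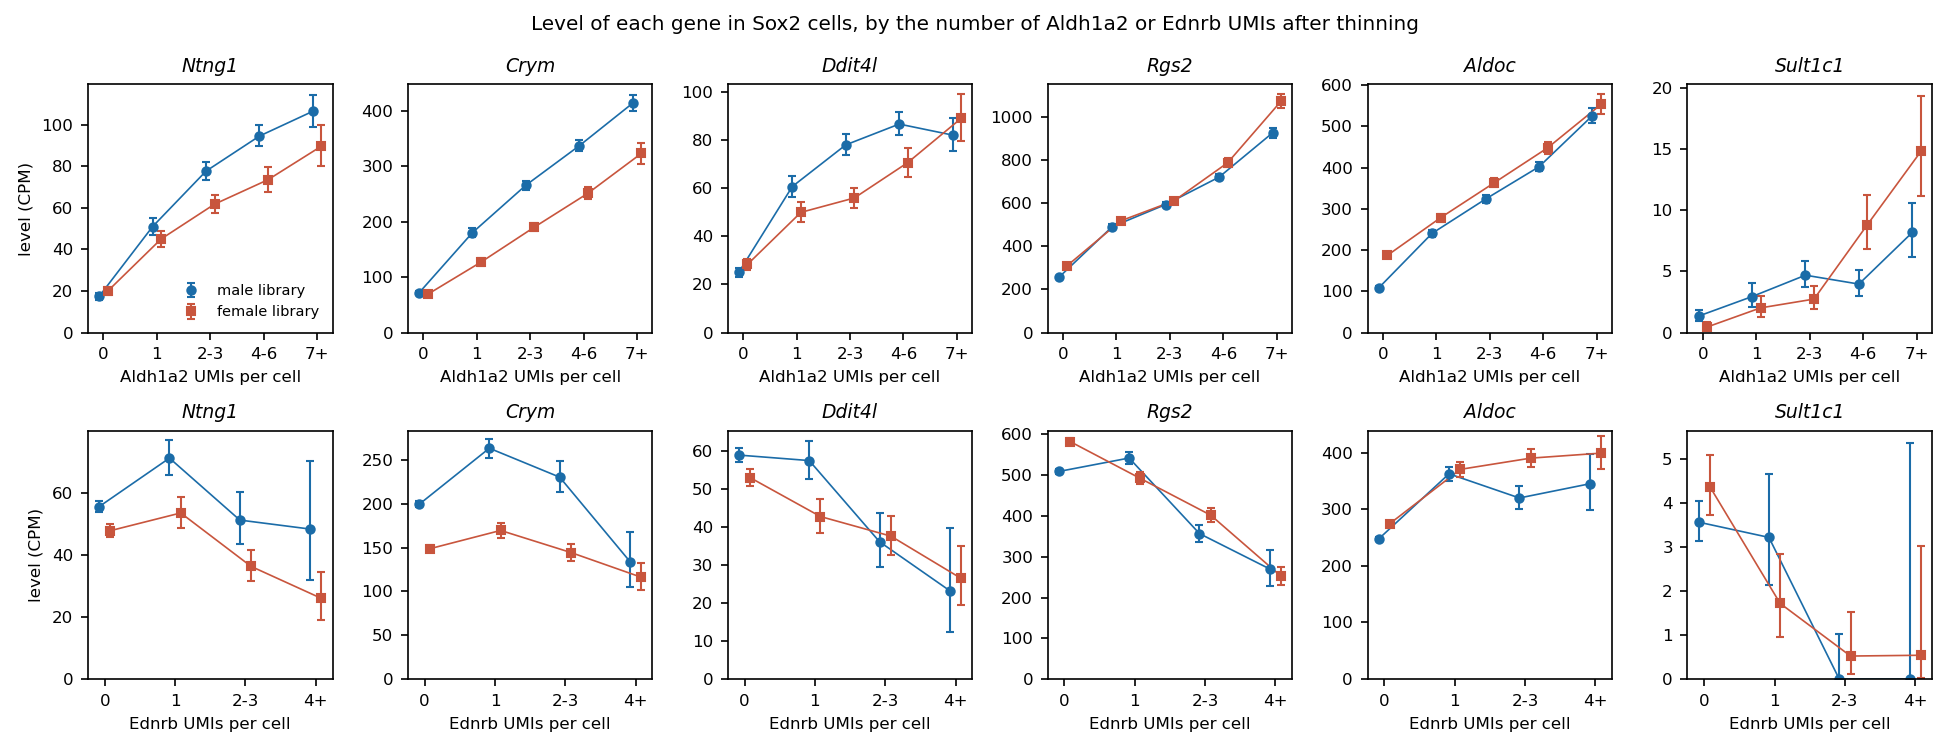
Level of each gene in *Sox2* cells (y axis, CPM with 95% Poisson limits) by the number of *Aldh1a2* UMIs (upper row) or *Ednrb* UMIs (lower row) in the thinned cell (x axis), for the male (circles) and female (squares) library. All 6 genes are higher with 7 or more *Aldh1a2* UMIs than with 0, while with *Ednrb* UMIs of 4 or more *Rgs2* was at 269.9 and 252 CPM and *Aldoc* at 345 and 399 CPM.

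Read from the genes' side, *Aldh1a2* was found in most cells that held any of them. It was in 91.3% (82.0 to 96.7) of male and 96.4% (87.5 to 99.6) of female *Sox2* cells with *Sult1c1*, in 87.9% (85.8 to 89.8) and 83.0% (80.4 to 85.5) of those with *Ntng1*, and in 74.8% (73.4 to 76.2) and 74.1% (72.6 to 75.6) of those with *Rgs2*. *Aldh1a2* was also in most cells without *Sult1c1*, at 62.5% and 65.0%, and in most cells without *Ntng1*, at 56.4% and 61.4%. Cells without *Rgs2* had *Aldh1a2* in 35.8% (33.5 to 38.2) and 44.9% (42.3 to 47.5), and cells without *Crym* in 42.5% (40.6 to 44.4) and 53.4% (51.5 to 55.3). *Ednrb* gave a mixed picture. It was in 21.5% (20.1 to 23.1) and 37.5% (35.7 to 39.2) of cells with *Aldoc*, against 10.4% (9.18 to 11.8) and 22.1% (20.1 to 24.2) of cells without it. In cells with *Ddit4l* it was less common, at 13.5% (11.5 to 15.8) and 28.1% (25.1 to 31.3), against 17.5% (16.4 to 18.7) and 33.0% (31.5 to 34.5) without it.

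The genes were found together in single cells, which follows in part from their choice as leading in the same cells. *Aldh1a2*-only cells held on average 2.79 (male) and 2.62 (female) of the 6 genes, cells with both markers 2.58 and 2.34, *Ednrb*-only cells 1.98 and 1.89, and cells with neither 1.08 and 1.30. At least 4 of the genes were found in 31.5% (29.7 to 33.3) of male and 25.1% (23.2 to 27.0) of female *Aldh1a2*-only cells, against 7.74% (4.18 to 12.9) and 8.02% (5.55 to 11.1) of *Ednrb*-only cells. No more than 1 was found in 17.5% (16.0 to 19.0) and 19.5% (17.8 to 21.3) of *Aldh1a2*-only cells and in 72.5% (70.4 to 74.6) and 64.1% (61.4 to 66.8) of cells with neither.

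**Figure D3:**
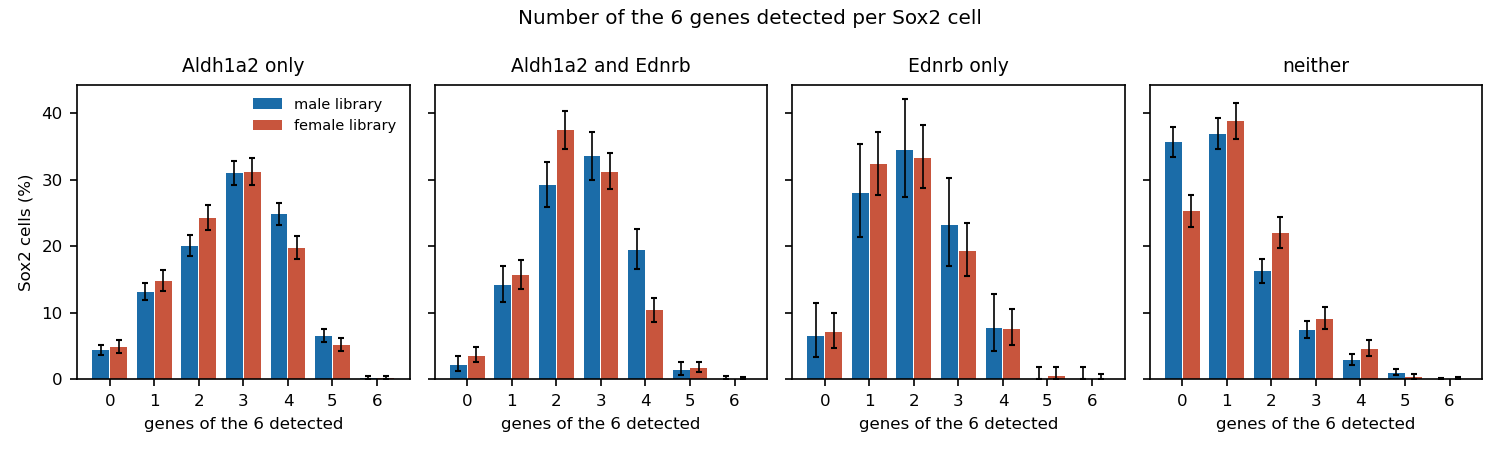
Share of *Sox2* cells (y axis, %) by how many of the 6 genes had a UMI after thinning (x axis, 0 to 6), in 4 panels by *Aldh1a2* and *Ednrb* detection, with bars for the male and female library and 95% Clopper-Pearson limits. The most common number is 3 in *Aldh1a2*-only cells (31.0% and 31.2%), 2 in *Ednrb*-only cells (34.5% and 33.3%) and 1 in cells with neither (36.9% and 38.9%).

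Over all thinned *Sox2* cells, every pair of the 6 genes was found together more often than the product of their single shares. These cells include differentiating-like and endocrine-like cells, and the genes were chosen as leading in the same SCs. Such an excess is therefore built in, and pairs of other genes were not scored as a background. The excess was smallest for *Rgs2* with *Aldoc*, at 1.14 times the product in male cells and 1.08 times in female cells, and among pairs without *Sult1c1* it was largest for *Ntng1* with *Crym*, at 1.54 and 1.45. Within *Aldh1a2*-only cells the same pairs were at 1.05 and 1.06, and at 1.21 and 1.21. The excess of these pairs was thus smaller among cells that share the *Aldh1a2* gate. With *Ednrb*, *Sult1c1* and *Ddit4l* were found together less often than the product in both libraries. *Sult1c1* was the lowest, at 0.433 and 0.396, with 5 male and 7 female cells that held both, and *Ddit4l* was at 0.810 and 0.875.

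The levels were then taken across cell classes, which come from clusters of the integrated libraries made without the 6 genes, *Aldh1a2* or *Ednrb*. Among the 4 SC-like clusters, the one highest in *Aldh1a2* held 1376 male and 1467 female cells and the one highest in *Ednrb* 596 and 937. The 10 genes with the largest fold in the *Aldh1a2*-rich cluster include *Rgs2*, *Ntng1*, *Crym*, *Aldoc* and *Ddit4l*, but no marker of the SC list, of which 6 were at 5 CPM or more.

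*Rgs2* was at 1028 (1012 to 1045) CPM in male and 1032 (1015 to 1049) CPM in female cells of the *Aldh1a2*-rich cluster, and at 409.5 (392 to 428) CPM and 361 (348 to 375) CPM in the *Ednrb*-rich cluster. The ratios of the levels in these clusters were 2.51-fold (2.37 to 2.67) and 2.86-fold (2.71 to 3.01) for *Rgs2*, 2.54-fold (2.14 to 3.03) and 3.07-fold (2.58 to 3.67) for *Ntng1*, and 2.38-fold (2.01 to 2.82) and 3.81-fold (3.18 to 4.57) for *Ddit4l*. *Crym* followed with 2.18-fold (2.0 to 2.37) and 1.95-fold (1.78 to 2.13), and *Aldoc* had the smallest, 1.38-fold (1.29 to 1.47) and 1.23-fold (1.17 to 1.30). *Sult1c1* was at 12.7 (11.0 to 14.6) CPM and 10.6 (8.96 to 12.5) CPM there, against 1 UMI in each library in the *Ednrb*-rich cluster, ratios of 62.5-fold (9.67 to 2844) and 87.0-fold (13.2 to 4042). Of the 6 genes, 5 were 1.5-fold or more higher in the *Aldh1a2*-rich cluster of both libraries, as were 2.31% of all 10056 genes counted, and again this is how they were chosen.

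In differentiating-like cells the genes separated. *Ntng1* was at 3.50 (2.73 to 4.41) CPM in male and 5.95 (4.74 to 7.39) CPM in female cells, and *Crym* at 22.5 (20.4 to 24.6) CPM and 25.4 (22.8 to 28.2) CPM. The level in the *Aldh1a2*-rich cluster was higher by 35.9-fold (27.2 to 48.1) and 16.7-fold (12.7 to 22.1) for *Ntng1*, and by 20.2-fold (18.0 to 22.7) and 11.0-fold (9.59 to 12.6) for *Crym*. *Aldoc* was at 47.3 (44.4 to 50.4) CPM and 85.0 (80.2 to 90.0) CPM, ratios of 12.2-fold (11.2 to 13.3) and 6.55-fold (6.05 to 7.10). *Ddit4l* ratios were 7.80-fold (6.69 to 9.11) and 5.12-fold (4.34 to 6.06). *Sult1c1* had 4 UMIs in all male and 8 in all female differentiating-like cells. The sizes of these ratios depend on the clusters. With the 6 genes, *Aldh1a2* and *Ednrb* kept for clustering, the male ratio was 13.7 for *Ntng1*, 10.9 for *Crym*, 7.40 for *Aldoc* and 4.81 for *Ddit4l*.

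*Rgs2* had the smallest ratios. It was at 286 (279 to 294) CPM and 365 (355 to 375) CPM, ratios of 3.59-fold (3.44 to 3.74) and 2.83-fold (2.71 to 2.96). Within the class, the cluster led by *Cdkn1a* was at 600.1 and 655 CPM of *Rgs2*, above every SC-like cluster but the *Aldh1a2*-rich one in the female library, and the cluster led by *Smoc2* at 174 and 213 CPM. The same order held for *Ntng1* (9.90 and 14.4 CPM against 1.2 and 1.55 CPM) and for *Crym* (60.3 and 59.0 CPM against 8.89 and 7.85 CPM). *Aldh1a2* itself was at 86.3 and 113 CPM in the first and 46.0 and 49.9 CPM in the second. All 6 genes were 1.5-fold or more higher in the *Aldh1a2*-rich cluster than in differentiating-like cells, as were 17.3% of 10724 genes counted. The genes were chosen as leading in *Aldh1a2*-rich SCs, so nothing is read from this count.

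Endocrine-like cells differed by type. In gonadotroph-like cells *Rgs2* was at 28.2 (24.9 to 31.7) CPM and 30.0 (22.6 to 39.1) CPM, *Crym* at 6.37 (4.89 to 8.17) CPM and 4.91 (2.25 to 9.33) CPM, and *Ntng1* at 4.22 (3.02 to 5.72) CPM and 1.64 (0.338 to 4.79) CPM, while *Aldoc* was at 119 (113 to 127) CPM and 78.6 (66.3 to 92.6) CPM, in the male library above its level in differentiating-like cells. Male *Ddit4l* was at 42.8 (38.8 to 47.1) CPM in gonadotroph-like cells. In the male gonadotroph-like cluster led by *Gnrhr* it was at 106 CPM, close to the 127 CPM of the *Aldh1a2*-rich SC-like cluster, and in the other, led by *Neurod1*, at 15.1 CPM. The *Gnrhr*-led cluster has 186 male but only 12 female cells.

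In Pou1f1 lineage-like cells *Rgs2*, *Crym* and *Ntng1* were above their levels in gonadotroph-like cells. *Rgs2* was at 252 (243 to 262) CPM and 250.5 (234 to 267) CPM, *Crym* at 94.7 (88.8 to 101) CPM and 67.6 (59.4 to 76.6) CPM and *Ntng1* at 21.9 (19.1 to 25) CPM and 16.5 (12.6 to 21.2) CPM. *Aldoc* was at 113 (107 to 120.0) CPM and 103 (92.7 to 114) CPM and *Ddit4l* at 43.5 (39.5 to 47.8) CPM and 48.4 (41.5 to 56.1) CPM, and the male limits of both overlap those of gonadotroph-like cells. The cluster led by *Gh* had 111 and 86.5 CPM of *Ddit4l*, the second highest level among named clusters of at least 20 cells in each library. Its *Crym* level was 127 CPM in the male but 11.6 CPM in the female library, and its *Aldh1a2* level 277 and 34.9 CPM. *Rgs2* (421 and 123 CPM), *Aldoc* (199 and 46.5 CPM) and *Ntng1* (37.2 and 9.04 CPM) were also higher in its male cells. This cluster held 91 male and 52 female cells, and whether single cells in it held these genes together was not tested. Melanotroph-like cells had *Rgs2* at 56.7 (49.7 to 64.3) CPM and 45.9 (37.3 to 55.9) CPM and *Aldoc* at 61.1 (53.9 to 69.1) CPM and 115 (101 to 129.8) CPM, the others under 20 CPM, and no *Sult1c1* UMI. Over endocrine-like cells as a whole, the level in the *Aldh1a2*-rich cluster was higher by 10.5-fold (8.92 to 12.3) and 9.97-fold (7.55 to 13.3) for *Ntng1*, by 8.08-fold (7.68 to 8.51) and 7.39-fold (6.84 to 7.98) for *Rgs2*, and by 3.51-fold (3.13 to 3.92) and 3.89-fold (3.23 to 4.70) for *Ddit4l*.

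In mesenchymal-like cells as a whole *Ntng1* and *Crym* were higher than in differentiating-like cells as a whole, and *Rgs2* and *Aldoc* lower. *Ntng1* was at 25.1 (21.2 to 29.5) CPM and 35.7 (29.2 to 43.3) CPM, and *Crym* at 63.0 (56.7 to 69.7) CPM and 76.9 (67.2 to 87.7) CPM. *Rgs2* was at 54.3 (48.5 to 60.6) CPM and 73.5 (64.0 to 84.0) CPM, *Aldoc* at 29.7 (25.4 to 34.4) CPM and 28.5 (22.7 to 35.3) CPM, and *Ddit4l* at 12.1 (9.46 to 15.3) CPM and 6.18 (3.66 to 9.77) CPM. Within this class, *Rgs2* was at 80.8 and 110.0 CPM in the cluster led by *Tcf21* and at 19.0 and 41.7 CPM in that led by *Apod*. Of the *Tcf21*-led cluster 14.7% of cells were marked as doublets by Scrublet, against 3.57% of the other. With such cells removed before clustering, *Rgs2* was at 23.6 (17.9 to 30.6) and 32.9 (23.0 to 45.5) CPM in the *Tcf21*-led and at 25.4 (19.5 to 32.6) and 17.3 (11.2 to 25.5) CPM in the *Apod*-led cluster, with overlapping limits, and *Aldoc* at 4.15 and 1.83 CPM in the *Tcf21*-led one. *Ntng1*, at 21.6 to 33.9 CPM, and *Crym*, at 39.0 to 91.3 CPM, were still above their levels in differentiating-like cells as a whole. In the *Tcf21*-led cluster, however, *Crym* was at 39.0 (31.5 to 47.7) and 50.2 (37.8 to 65.3) CPM. The *Cdkn1a*-led differentiating-like cluster of the main setting was higher, at 60.3 (53.9 to 67.3) and 59.0 (52.3 to 66.3) CPM, with overlapping limits in the female library. The matrix genes of this class were rare in the gated *Sox2* cells, with *Dcn* in 2.35% and 1.16% of *Aldh1a2*-only and 1.19% and 1.25% of *Ednrb*-only cells.

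**Figure D4:**
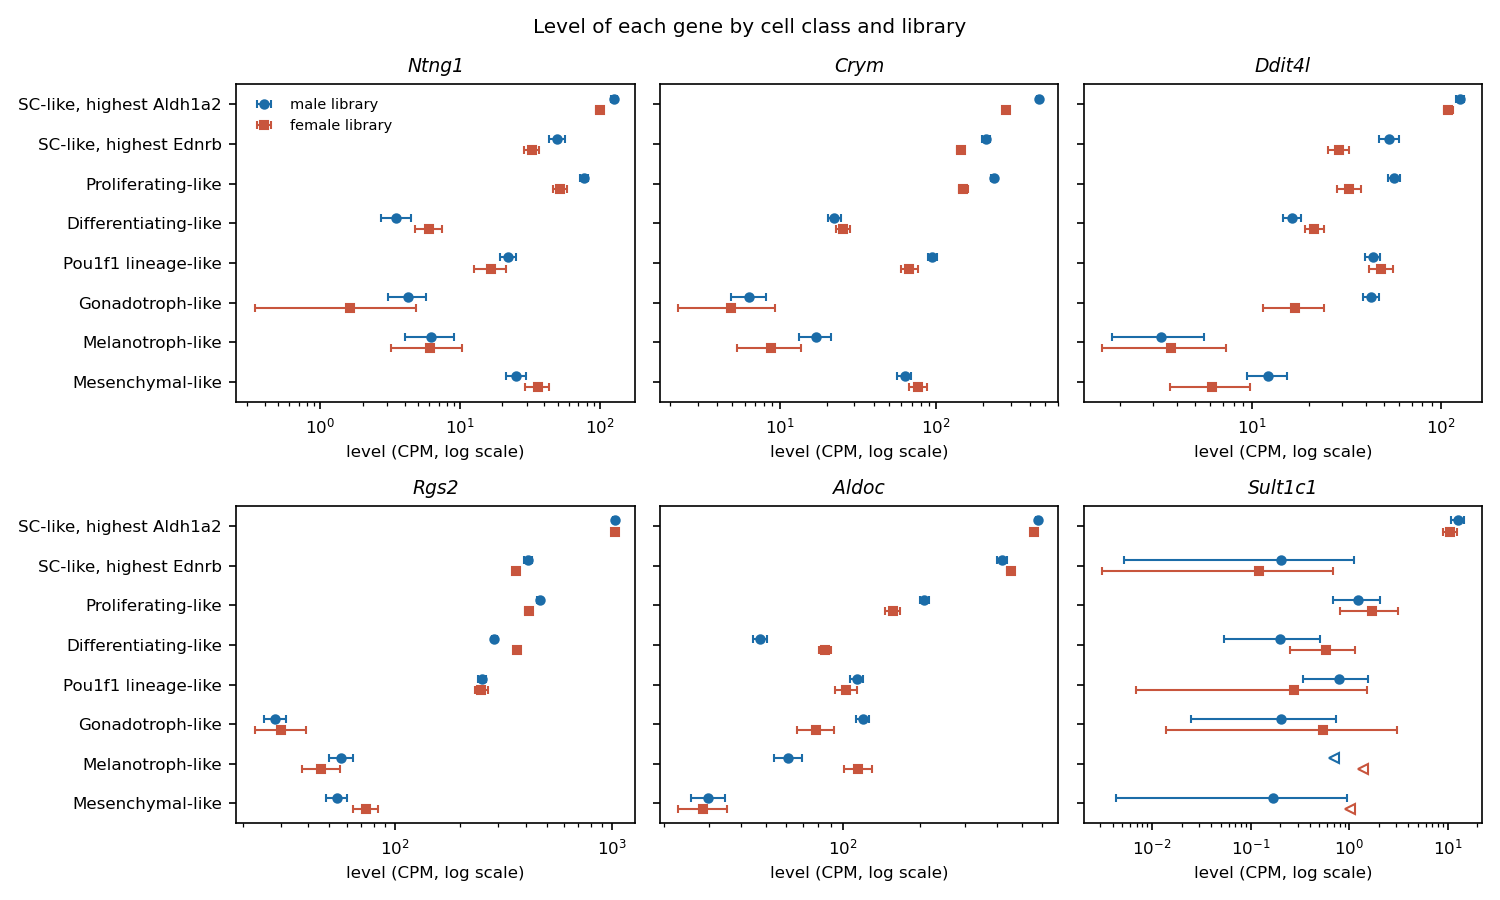
Level of each gene (x axis, CPM on a log scale, with 95% Poisson limits) in 8 groups of cells (y axis) of the male (circles) and female (squares) library, where open triangles mark the upper limit for no UMI. Each gene is highest in the SC-like cluster highest in *Aldh1a2*. The next group differs by gene, with *Aldoc* at 418 and 452 CPM in the *Ednrb*-rich cluster.

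In the order of named clusters with at least 20 cells in a library, the *Aldh1a2*-rich cluster came first for each of the 6 genes in both libraries. For *Ntng1*, *Crym*, *Rgs2*, *Aldoc* and *Sult1c1* its limits did not overlap those of the next cluster, and for *Ddit4l* they overlapped those of the *Gh*-led cluster. The SC-like cluster led by *Hells*, a gene of replicating cells, was second for *Ntng1* and *Sult1c1* in both libraries, at 82.6 and 62.4 CPM and at 3.27 and 3.23 CPM. For both genes its limits overlapped those of a proliferating-like cluster, the next in order, in both libraries.

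Free RNA in droplets gives UMIs in cells that do not express a gene. As a reference for the shares above, *Rgs2* was found in 7.15% and 8.87% of gonadotroph-like cells after thinning, *Crym* in 2.18% and 2.42%, and *Ntng1* in 1.56% and 0.806%. *Ddit4l* was found in 1.75% and 0.775% of melanotroph-like and *Aldoc* in 7.03% and 4.39% of mesenchymal-like cells. These shares are below those of *Ednrb*-only cells, and for *Ntng1*, *Crym*, *Ddit4l*, *Rgs2* and *Aldoc* also below those of cells with neither marker. For each gene the class named was at or near its lowest level among the classes above, so a low share there was built in. How much free RNA adds to the shares was not tested. Before thinning, the median depths were 14209.5 and 14446 UMIs in gonadotroph-like and 11989.5 and 10000.5 in *Aldh1a2*-only cells. The melanotroph hormone gene *Pomc* was found in 52.4% of male and 17.8% of female *Aldh1a2*-only cells and in 54.2% and 19.5% of *Ednrb*-only cells. Its level did differ between these gates, at 1859.6 CPM and 455 CPM in *Aldh1a2*-only against 5077 CPM and 4155 CPM in *Ednrb*-only cells, and all 6 melanotroph markers were higher in *Ednrb*-only cells of both libraries. Among cells of SC-like clusters *Pomc* was at 238 and 51.7 CPM against 578 and 49.1 CPM.

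The genes were then compared by *Lef1* and by the cell cycle among *Sox2* cells, with comparisons and a 1.5-fold limit that were added after values had been seen. *Lef1*, a transcription factor of the WNT pathway and a marker of the differentiating-like class, split the *Sox2* cells by 1 UMI. Male cells with *Lef1* had 68.0 CPM of *Crym* against 235 CPM without it, a ratio of 0.289 (0.267 to 0.314), and female cells 56.9 and 167 CPM, a ratio of 0.341 (0.303 to 0.381). *Ntng1* had ratios of 0.290 (0.247 to 0.338) and 0.278 (0.221 to 0.346), *Aldoc* 0.340 (0.317 to 0.364) and 0.358 (0.331 to 0.387), and *Ddit4l* 0.403 (0.350 to 0.461) and 0.547 (0.461 to 0.648). *Rgs2* was the least reduced, at 0.646 (0.621 to 0.672) and 0.745 (0.711 to 0.780), and *Aldh1a2* was at 0.256 (0.242 to 0.271) and 0.342 (0.319 to 0.367). Of the 6, all but *Rgs2* were 1.5-fold or more lower in both libraries, as were 17.3% of 12417 genes. *Lef1* marks differentiating-like cells, so this count too is close to the choice of the genes, and nothing is read from it.

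Where *Lef1* and *Aldh1a2* were in the same cell, *Rgs2* was at 542 CPM in 286 male and 604 CPM in 221 female cells. *Crym*, at 141 and 99.5 CPM, and *Aldoc*, at 200.1 and 203 CPM, were below the 332 and 216 CPM of *Crym* and the 446 and 451 CPM of *Aldoc* in non-cycling *Aldh1a2* cells without *Lef1*. *Aldh1a2* itself was also lower in the cells with both, at 341 and 360.4 CPM.

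Cycling cells, defined by UMIs of at least 2 of 8 proliferation markers, had less of every one of the genes among *Sox2* cells with *Aldh1a2* and without *Lef1*. *Aldoc* was at 239 CPM in cycling and 446 CPM in other male cells, a ratio of 0.536 (0.511 to 0.562), and at 198 and 451 CPM in female cells, a ratio of 0.440 (0.411 to 0.471). *Sult1c1* ratios were 0.386 (0.238 to 0.615) and 0.251 (0.115 to 0.505), and *Ddit4l* ratios 0.658 (0.595 to 0.727) and 0.502 (0.424 to 0.593). *Rgs2* ratios were 0.678 (0.655 to 0.702) and 0.619 (0.591 to 0.649). *Crym*, at 0.739 (0.703 to 0.778) and 0.806 (0.743 to 0.873), and *Ntng1*, at 0.878 (0.799 to 0.964) and 0.761 (0.657 to 0.880), were nearest to 1. *Aldoc*, *Sult1c1* and *Ddit4l*, 3 of the 6, were 1.5-fold or more lower in both libraries, as were 4.31% of 11379 genes, while *Aldh1a2* was at 0.919 (0.891 to 0.948) and 0.911 (0.871 to 0.953). The genes were chosen from values of these same cells, so nothing is read from this count.

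**Figure D5:**
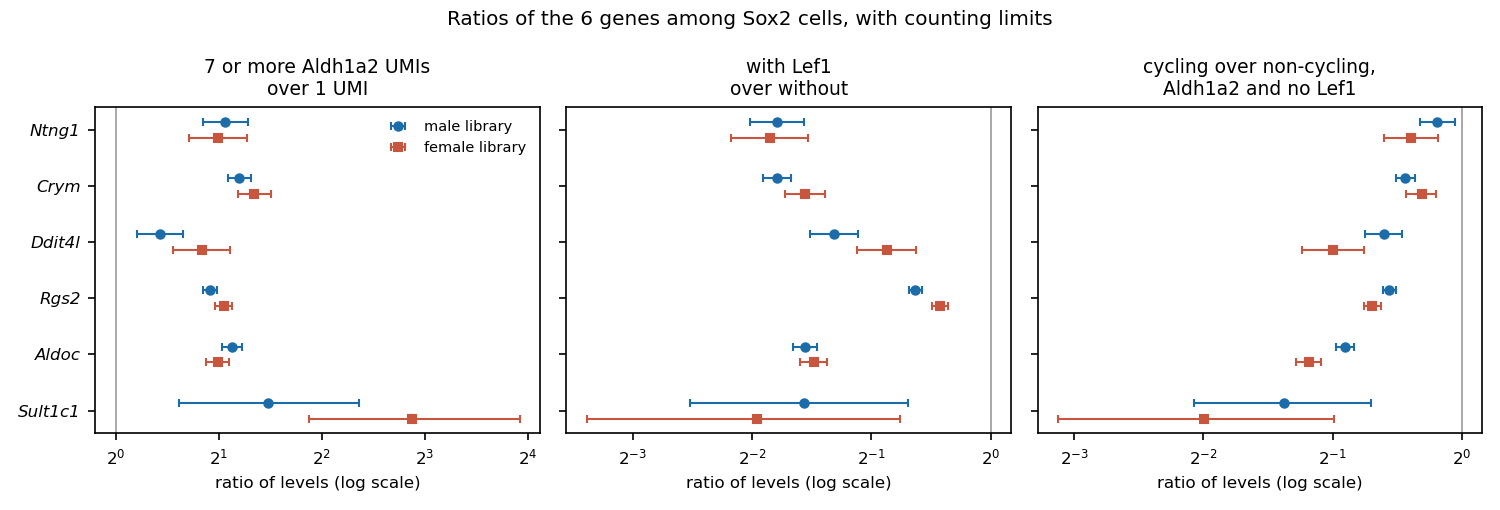
Ratio of the level of each gene (x axis, log scale, with counting limits) among *Sox2* cells, in cells with 7 or more over 1 *Aldh1a2* UMI (left), with over without *Lef1* (middle) and cycling over non-cycling with *Aldh1a2* and without *Lef1* (right), for the male (circles) and female (squares) library. *Rgs2* is the least reduced with *Lef1* (0.646 and 0.745), and *Ntng1* and *Crym* are the least reduced in cycling cells.

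The male and female libraries are set side by side without a test. In the *Aldh1a2*-rich SC-like cluster the male level over the female level was 1.62 (1.54 to 1.72) for *Crym*, 1.26 (1.14 to 1.39) for *Ntng1*, 1.15 (1.05 to 1.27) for *Ddit4l*, 1.2 (0.877 to 1.63) for *Sult1c1*, 1.04 (0.992 to 1.08) for *Aldoc* and 0.996 (0.965 to 1.03) for *Rgs2*. *Crym* was thus the gene that differed most, and *Rgs2*, *Aldoc* and *Sult1c1* had limits that hold 1. *Aldh1a2* was at 1.22 (1.18 to 1.27) and *Ednrb* at 0.418 (0.353 to 0.494). In differentiating-like cells the male level was lower for 4 of the genes. The ratio was 0.557 (0.493 to 0.628) for *Aldoc*, 0.587 (0.369 to 0.931) for *Ntng1*, 0.759 (0.606 to 0.95) for *Ddit4l* and 0.785 (0.744 to 0.828) for *Rgs2*, beside 0.792 (0.701 to 0.894) for *Aldh1a2*. Sex, library and sequencing depth cannot be told apart here.

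The genes whose levels were most like theirs were sought over 30 profiles, each a named cluster of at least 20 cells in 1 library, among 6035 genes with at least 50 CPM in a profile. The measure was Pearson's r of log2(CPM + 5), a description, since profiles of a library share its depth and its free RNA. *Ntng1* was most like *Notch2* (r = 0.95), *Fbln2* (r = 0.94) and *Crym* (r = 0.94), and *Crym* most like *Gstt1* (r = 0.94), *Ntng1* and *Kazald1* (r = 0.92). *Rgs2* was most like *Mageh1* (r = 0.94), *Klk8* (r = 0.92) and *Usp51* (r = 0.92), and *Aldoc* most like *Plekhb1* (r = 0.93), *Irf2bpl* (r = 0.92) and *Mia* (r = 0.92). *Ddit4l* had no profile as close, with *Tspan12* (r = 0.74), *Arap2* (r = 0.71) and *Mt1* (r = 0.71), and neither had *Sult1c1*, with *Ramp1* (r = 0.71), *Lix1* (r = 0.68) and *Mageh1* (r = 0.68). *Notch2* encodes a Notch receptor. With *Aldh1a2*, *Crym* had r = 0.89, *Rgs2* 0.87, *Ntng1* 0.86, *Aldoc* 0.81, *Sult1c1* 0.63 and *Ddit4l* 0.63.

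The other genes of the pathways were counted between the SC-like clusters, where 2.31% of all genes were higher and 4.46% lower in the *Aldh1a2*-rich one. Genes under 20 CPM in SC-like cells fell outside the rule for naming, so *Pfkp*, *Sesn1*, *Thrb*, *Rgs16*, *Sult2b1*, *Sult4a1* and *Lrrc4c* were named after their values were seen. The lists of mTORC1, glycolysis and sulfonation genes each hold 1 of the 6. Of 15 thyroid hormone genes, 8 had enough UMIs and none was 1.5-fold or more higher or lower in the *Aldh1a2*-rich than in the *Ednrb*-rich cluster of both libraries. The hormone receptor gene *Thra* had ratios of 0.893 and 1.10, beside 2.18 and 1.95 for *Crym*. Of 11 regulators of mTORC1 counted, *Ddit4l* alone was higher, and the list's median ratio was 0.997 and 0.985. Of 16 glycolytic genes none was higher and *Pfkp* and *Eno1* were lower, with *Eno1* at 0.662 and 0.564. *Aldoa*, which encodes a related aldolase, was at 0.826 and 0.726, where *Aldoc* was at 1.38 and 1.23. Among 12 immediate-early genes, which dissociation is known to induce, *Atf3* alone was past the limit, at 0.299 and 0.448, and the list's median was 0.642 and 0.835. With 1 gene higher and 3 lower over these lists, nothing is read from their counts.

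Against differentiating-like cells more of these genes differed. The *Aldh1a2*-rich cluster was higher in 6 of 16 glycolytic genes (*Hk1*, *Aldoa*, *Aldoc*, *Gapdh*, *Eno1* and *Ldha*) and lower in none, and *Ldha*, a lactate dehydrogenase, had ratios of 2.83 and 2.59. Thyroid hormone genes went both ways, with *Thra* (3.01 and 2.51) among those higher and *Thrb* and *Ncoa1* lower, of 8 counted. Of 12 mTORC1 regulators, *Ddit4l* and *Sesn1* were higher. Of 12 immediate-early genes, *Jun*, *Junb*, *Nr4a1* and *Klf6* were higher. The background for these counts was 17.3% of genes higher and 10.7% lower.

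Relatives and partners of the 6 gave no common direction. Of 19 paralogues, 3 had enough UMIs to compare the SC-like clusters and none passed the limit, with *Rgs3* at 1.09 and 1.26. Against differentiating-like cells, 6 were counted, of which *Rgs3* (3.78 and 2.91) and *Aldoa* were higher and *Rgs16*, *Sult2b1* and *Sult4a1* lower. Of 13 genes of sulfonation, 2 were counted between the SC-like clusters, of which *Sult1c1* itself was higher, while *Papss1*, which makes the sulfate donor, was at 0.869 and 0.842. Against differentiating-like cells 4 were counted, with *Sult1c1* higher and *Sult2b1* and *Sult4a1* lower. Of 5 partner genes, 4 were counted between the SC-like clusters and none passed, with *Gnaq*, which encodes the G protein that *Rgs2* acts on, at 0.910 and 0.920. The netrin-G1 ligand gene *Lrrc4c* was counted only against differentiating-like cells, where it was lower and *Gnai2* higher.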

How the data were processed

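Pituitary cells of P3 Sox9iresGFP/+ mice were sorted for GFP and captured on the 10x Genomics platform, with 1 library of 3 pooled pituitaries per sex. The authors made the deposited counts, UMIs per gene and barcode, with Cell Ranger 3.0.2 against mm10 with eGFP added, and left the values unnormalised. The submitters' processing notes name R 3.6.0 and Seurat.

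Barcodes with at least 50 genes and a mitochondrial share no more than 3 SD above the library's mean were kept. No doublets were removed, and Scrublet scores (scanpy 1.11.5) were used as an alternative and to leave clusters unnamed. Libraries were integrated by anchors in Seurat 5.3.0 (R 4.3.3, RANN 2.6.2; 2000 variable genes, 20 components, resolution 0.8), with the 6 genes, *Aldh1a2*, *Ednrb*, sex-linked genes and eGFP left out of the variable genes. Clusters with a median UMI count under 33.3% of their libraries', or with over 75% of cells marked by Scrublet, stayed unnamed, and others were named from marker lists. For co-detection, cells were thinned to 5000 UMIs (seed 1). Levels are sums of unthinned UMIs per 1000000 (CPM), and ratios have conservative counting limits. Genes were counted where the compared cells of each library held at least 100 UMIs, and the counting step was tested on simulated data.

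The members, gene lists (thyroid hormone, mTORC1 regulators, glycolysis, immediate-early, sulfonation, paralogues, partners) and markers were chosen with earlier results of these data known, and the 1.5-fold comparisons after values were seen. Genes named were the 6, *Aldh1a2*, *Ednrb*, *Sox2*, list genes of at least 20 CPM in SC-like cells, the 3 genes most like each member and the 5 with the largest ratios each way, with exceptions stated where they occur. Alternatives changed the thinning, the marker cutoffs, the doublets, the cells and the clustering.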

Additional observations from a re-analysis of the deposited data

How the results depend on the processing

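Of the ratios of *Aldh1a2*-only over *Ednrb*-only cells under the alternatives, 78 differed from the main value by less than its counting limits and 28 by more. A further 2 changed direction, which was counted only where the main limits left out 1. Female *Aldoc*, at 0.987 in the main setting with limits that hold 1, could therefore not be counted, although it passed 1 in alternatives given below. Without thinning, the ratio was 0.968 in the male library for *Aldoc*, which reversed it, and 0.812 in the female, 3.52 and 3.63 for *Rgs2*, and 7.80 for male *Sult1c1*. With all UMIs scored only in cells of 5000 UMIs or more, it was 0.993 for male *Aldoc*, again reversed, and 0.802 for female, 3.87 and 3.64 for *Rgs2* and 6.91 for male *Sult1c1*. Among cells of SC-like clusters it was 1.79 for male *Crym*, 2.99 and 3.18 for *Rgs2* and 1.09 for female *Aldoc*, and without posterior lobe-like cells 1.43 and 1.11 for *Aldoc* and 2.48 for female *Rgs2*. These 3 alternatives were chosen after seeing the data. Thinned to 3000 UMIs, it was 1.92 and 2.34 for *Rgs2* and 1.61 for male *Crym*. With *Aldh1a2* and *Ednrb* scored at 2 or more UMIs, it was 2.93 and 2.88 for *Ntng1*, 4.08 and 3.42 for *Rgs2*, 4.60 for male *Ddit4l*, 1.55 for male *Aldoc* and 2.32 for female *Crym*. Without cells with proliferation markers or *Lef1*, the male ratios of *Crym*, *Ddit4l* and *Aldoc* were 1.96, 3.18 and 1.38. The 55 genes past 2-fold were 112 with a minimum of 30 UMIs and 12 past 3-fold, and of the 6 genes 3 passed without thinning, as did 82 of all genes, and 0 past 3-fold.

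Of the ratios of the *Aldh1a2*-rich SC-like cluster over differentiating-like cells, 41 stayed within counting limits and 19 did not. With the 6 genes, *Aldh1a2* and *Ednrb* kept for clustering, they were 13.7 and 10.6 for *Ntng1*, 10.9 and 7.41 for *Crym*, 4.81 and 3.62 for *Ddit4l*, 2.74 and 2.22 for *Rgs2*, 7.40 and 4.87 for *Aldoc* and 20.9 for male *Sult1c1*. At a resolution of 0.5 they were 18.2 for male *Ntng1*, 14.0 for male *Crym*, and 8.68 and 5.75 for *Aldoc*, and at 1.2 3.78 and 3.03 for *Rgs2* and 6.17 for female *Ddit4l*. Without the cells that scored highest as doublets, female *Rgs2* was at 2.97. The causes were not tested.

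No paired analysis was possible because each sex has 1 library and no replicate numbers. With 1 library a sex, no leave-one-out value exists, and the limits given leave out variation between animals, dissociations and sorts. The sort for GFP sets which cells were captured. *Sult1c1* is limited by depth, with 1 UMI or none in several groups.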
